A study of Mus musculus with 4 samples.

Results

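Macrophages of the mouse molar region were described in 4 single-cell RNA libraries, 1 for each pairing of stage and jaw. The cells were chosen by their own counts: a barcode was kept with at least 1000 UMIs (unique molecular identifiers, each standing for 1 captured transcript molecule) and under 10% mitochondrial UMIs, and was taken as a macrophage with at least 5 UMIs of C1qa, C1qb and C1qc together, at least 1 of Tyrobp and Fcer1g together, 0 of Epcam and at most 15 of Col1a1, Col1a2 and Col3a1 together. The rule found 821 macrophages among 42164 kept barcodes. These were 226 of 9679 in the E15.5 maxillary library, 163 of 6582 in the E15.5 mandibular library, 269 of 16486 in the P1 maxillary library and 163 of 9417 in the P1 mandibular library.

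All animals were wild-type mice of the genotype labelled WTB6, and the labels give no treatment and no further allele. The E15.5 groups were embryos (their age label reads E15, while the protocol gives E15.5) and the P1 groups were newborn pups (P0/P1 in the protocol). Each library came from the dissected maxillary or mandibular molar tooth organs of 1 stage, with 6 tooth organs pooled into 1 sample, and the sex of the animals was not given. Each group was therefore 1 library, so no difference between groups had a replicate check and none was tested. Levels are counts per 1000000 UMIs (CPM), taken over the summed UMIs of the macrophages of a library. The intervals in brackets are exact 95% intervals for counting error only, and they do not cover the spread between animals, dissections or libraries.

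Macrophages are phagocytes that settle in tissues before birth, first from the yolk sac and the fetal liver and later also from blood monocytes. Tissue-resident cells take up dying cells, degrade them in lysosomes, recycle iron and lipid, and secrete chemokines and growth factors, and they depend on the receptor CSF1R. The same lineage gives rise to osteoclasts, which resorb the bone around a growing tooth. C1qa, C1qb and C1qc encode the chains of complement C1q, which macrophages themselves secrete and which tags apoptotic cells for uptake. Tyrobp and Fcer1g encode the signalling adaptors that pair with Fc receptors and TREM2.

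The 3 C1q genes lie side by side on chromosome 4 of GRCm38, within 18675 bases, all on the minus strand (C1qb at chr4:136880129-136886187, C1qc at chr4:136889804-136893065 and C1qa at chr4:136895917-136898803). The promoters of 2 of them are shown because they chose the cells, and those of Pf4 and Mrc1 because these genes stood among the furthest above all other barcodes. RefSeq windows on GRCm38.p6, from 250 bases before to 50 after the start of the gene, were found for 4 of the 5 genes looked up, C1qa being the other. Capitals mark GAGGAA or its reverse complement, the core bound by PU.1, the myeloid transcription factor encoded by Spi1.
C1qb promoter, chr4:136886151-136886450, minus strand: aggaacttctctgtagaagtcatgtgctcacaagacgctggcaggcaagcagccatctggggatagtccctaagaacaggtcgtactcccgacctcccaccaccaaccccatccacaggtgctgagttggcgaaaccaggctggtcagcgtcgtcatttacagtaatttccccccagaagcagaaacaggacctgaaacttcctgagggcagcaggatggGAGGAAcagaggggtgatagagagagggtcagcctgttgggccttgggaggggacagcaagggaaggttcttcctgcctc
C1qc promoter, chr4:136892865-136893164, minus strand: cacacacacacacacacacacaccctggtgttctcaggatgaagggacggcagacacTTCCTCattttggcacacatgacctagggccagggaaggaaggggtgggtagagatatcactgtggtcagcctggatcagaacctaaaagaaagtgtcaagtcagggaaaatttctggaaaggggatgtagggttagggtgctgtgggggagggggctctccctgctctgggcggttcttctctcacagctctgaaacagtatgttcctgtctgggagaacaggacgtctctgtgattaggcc
Pf4 promoter, chr5:90772185-90772484, plus strand: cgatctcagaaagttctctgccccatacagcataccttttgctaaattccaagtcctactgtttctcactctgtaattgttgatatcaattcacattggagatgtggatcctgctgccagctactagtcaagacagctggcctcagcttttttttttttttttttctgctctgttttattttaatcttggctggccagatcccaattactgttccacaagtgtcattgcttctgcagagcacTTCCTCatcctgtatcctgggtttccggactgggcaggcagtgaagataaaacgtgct
Mrc1 promoter, chr2:14229164-14229463, plus strand: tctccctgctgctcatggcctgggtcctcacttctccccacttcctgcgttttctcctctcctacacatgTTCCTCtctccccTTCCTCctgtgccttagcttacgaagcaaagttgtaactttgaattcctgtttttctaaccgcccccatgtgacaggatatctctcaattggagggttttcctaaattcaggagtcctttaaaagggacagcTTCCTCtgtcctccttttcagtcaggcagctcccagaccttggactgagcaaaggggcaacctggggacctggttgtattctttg
The core occurred once in the C1qb, C1qc and Pf4 windows and 3 times in the Mrc1 window, and 28.3% of 32851 promoters of this length hold it on one strand or the other. Its first base lay 30 bases before the start in C1qb, 193 in C1qc, 8 in Pf4, and 180, 167 and 35 in Mrc1. The letters TGCTGAC, from the MAF recognition sequence, which 4.67% of the promoters hold, were in none of the 4 windows. These are letter matches and no binding was measured. Spi1 itself was at 392, 409, 364 and 390 CPM in E15.5 maxillary, E15.5 mandibular, P1 maxillary and P1 mandibular macrophages, an order kept for every run of 4 values below, and at 4.55 to 13.5 CPM in the other kept barcodes. In leukocytes without C1q, described below, Spi1 was higher, at 416 to 515 CPM across the libraries.

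The P1 libraries overlapped in their barcodes. They shared 7131 barcodes, against 28 to 70 for any other pair of libraries, and 42.0% of the kept P1 maxillary barcodes (6923) also occurred in the P1 mandibular library. By the rule these were kept in the maxillary library and dropped from the mandibular one, so the jaw they came from cannot be told apart from the file that was kept. Among the 269 P1 maxillary macrophages 70 (26.0%) had a shared barcode, with a median of 15204 UMIs in the maxillary file and 3470 in the mandibular file. The ratio of the 2 totals was 2.78 to 5.47, with a median of 4.215. The remaining 199 had a barcode of their own and were shallow, with a median of 2846 UMIs.

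The 2 sets of P1 maxillary barcodes also differed in stage genes outside the macrophages. Amelx, which encodes the enamel protein amelogenin, was at 1.79 and 8.37 CPM in the other barcodes of the E15.5 maxillary and mandibular libraries, at 15.8 CPM in the P1 maxillary barcodes not shared, at 1213 CPM in the shared ones and at 4046 CPM in the P1 mandibular library. Dspp, a dentin gene of odontoblasts, gave 0.00948, 0.194, 2.34, 111 and 250 CPM in the same 5 sets, and Igf2bp1, an RNA-binding protein gene of fetal tissue, gave 32.8, 39.6, 23.8, 6.41 and 8.99 CPM. Xist, from the inactive X chromosome, gave 335, 322, 379, 793 and 757 CPM, and Ddx3y, from the Y chromosome, 47.4, 35.3, 41.3, 11.3 and 8.13 CPM. On a log scale the barcodes not shared lay nearer to both E15.5 libraries than to P1 mandibular in Amelx, Igf2bp1, Xist and Ddx3y, and in Dspp nearer to E15.5 mandibular but not to E15.5 maxillary, which had 1 UMI. The shared ones lay nearer to P1 mandibular in all 5 of these genes, although both sets carry the label P1 maxillary. Hbb-bs, a hemoglobin gene, gave 37947, 76074, 33394, 6161.5 and 15429 CPM in the same sets. There the barcodes not shared lay nearer to P1 mandibular than to E15.5 mandibular, and nearest to E15.5 maxillary. Whether the library so labelled holds cells of more than 1 stage, jaw or preparation was not tested, and P1 maxillary below is its label only. A pooled value of its macrophages averages 2 unlike sets, with 622635 UMIs from the 199 cells with their own barcode and 1100498 from the 70 shared cells. For many of the genes and lists on which the sets differed, the values of both are given beside the pooled one, a division chosen after seeing the data.

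The macrophages followed the same division. At least 2-fold differences at 50 CPM or more were counted between pairs of these sets. E15.5 maxillary macrophages and the 199 own-barcode cells differed at 33 of 2518 genes (1.31%), and the 70 shared cells and P1 mandibular macrophages at 27 of 2525 (1.07%). The 199 own-barcode cells and the 70 shared cells, which carry 1 label, differed at 96 of 2607 genes (3.68%). The own-barcode cells differed from E15.5 mandibular macrophages at 63 of 2740 genes (2.30%) and from P1 mandibular ones at 108 of 2555 (4.23%). E15.5 and P1 mandibular macrophages differed at 88 of 2799 (3.14%), and the jaws at E15.5 at 14 of 2681 (0.522%).

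**Figure D1:**
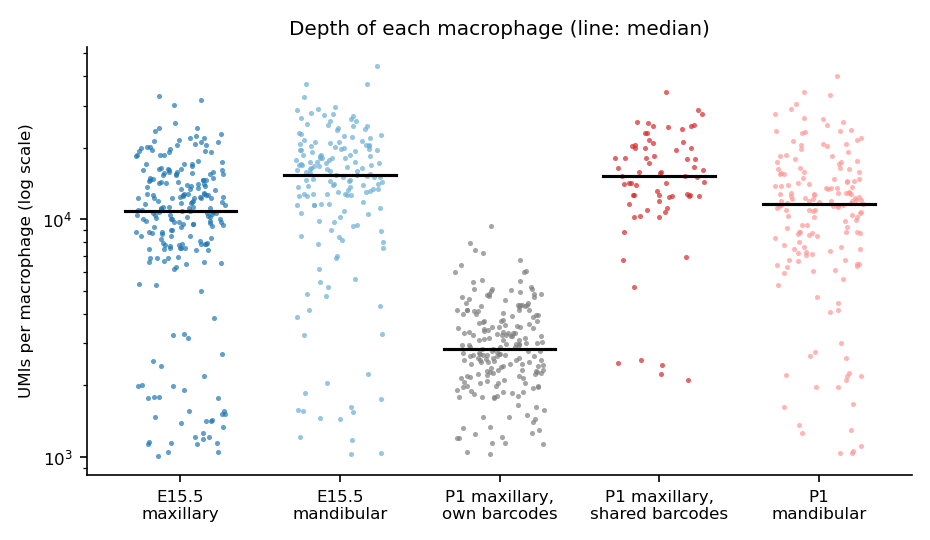
UMIs per macrophage on a log axis in 5 sets: E15.5 maxillary, E15.5 mandibular, P1 maxillary own barcodes, P1 maxillary shared barcodes and P1 mandibular. Each point is 1 cell and the lines are medians, at 10830, 15353, 2846, 15204 and 11537 UMIs.

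Macrophages made up 2.335% of kept barcodes [2.04, 2.66] in E15.5 maxillary, 2.48% [2.11, 2.88] in E15.5 mandibular, 1.63% [1.44, 1.84] in P1 maxillary and 1.73% [1.48, 2.02] in P1 mandibular. The share was lower at P1 in both jaws. Within the P1 maxillary library it was 2.08% [1.80, 2.39] of the 9563 barcodes not shared and 1.01% [0.789, 1.28] of the 6923 shared ones, so the own-barcode share lay between those of P1 mandibular and the E15.5 libraries and the shared one below every other set. A threshold of 5 UMIs is easier to reach in deeper cells, and the own-barcode cells were the shallowest. The libraries held 109723360, 86659227, 128812956 and 139873101 UMIs, of which macrophages gave 2516411, 2480735, 1723133 and 1969771. The median macrophage had 10830, 15353, 3342 and 11537 UMIs, beside 9820, 11539, 4213 and 10844 in the other kept barcodes.

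The genes that chose the cells are given as a description only. C1qa was at 2341, 2356, 2650 and 2928 CPM, C1qb at 2786, 2936, 3011 and 3065 CPM and C1qc at 1820, 1922, 2091 and 2452 CPM. A macrophage held a median of 85, 111, 28 and 106 C1q UMIs, far from the threshold of 5, and macrophages held 83.1%, 94.1%, 81.8% and 90.6% of all C1q UMIs among kept barcodes. Tyrobp was at 1694, 1689, 1902 and 2123 CPM and Fcer1g at 2376, 2365, 2563 and 2663 CPM. By these pooled values all 5 rule genes were lowest at E15.5 and highest in the P1 mandibular library. C1qb was at 3278 CPM in the own-barcode and 2860 CPM in the shared P1 maxillary cells.

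The 58 cells just inside the threshold, with 5 to 8 C1q UMIs, had a median of 1772 UMIs, and the 44 just outside it, with 3 or 4, a median of 2059. Csf1r was at 210 CPM inside and 190 outside, Mrc1 at 317 and 224, Pf4 at 1136 and 794, Lyz2 at 882 and 2168, Plac8 at 162 and 500, and Ccr2 at 95.9 and 150. At both edges Csf1r was below its level in the macrophages of any library, given below. Hbb-bs was far higher than any of these, at 42293 CPM inside and 43568 outside. By library Hbb-bs was at 52547, 22259, 341 and 105570 CPM inside and 95623, 40038, 317 and 773 CPM outside. Both edges carried Csf1r. In these pooled values the outer edge carried more of Lyz2, Plac8 and Ccr2, which are genes of monocytes and other myeloid cells. This did not hold in every library, each with 8 to 24 cells inside and 11 outside. Lyz2 was at 834, 65.6, 2388 and 505 CPM inside and 127, 419, 2349 and 6737 CPM outside. Plac8 was at 150, 115, 364 and 0 CPM inside and 0, 52.4, 508 and 1666 CPM outside. Ccr2 was at 42.8, 0, 455 and 0 CPM inside and 0, 105, 159 and 410 CPM outside. Other genes of the monocyte list went the other way in the pooled values, with S100a4 at 893 CPM inside and 150 outside, S100a6 at 594 and 339 and Vcan at 177 and 46.0. In P1 mandibular cells S100a4 and S100a6 were higher outside, at 410 and 966 CPM against 0 and 38.9 CPM inside. Osteoclast genes were also higher inside, with Acp5 at 255 and 5.75 CPM, Atp6v0d2 at 192 and 0 and Mmp9 at 77.5 and 0. In the 733 barcodes that had no C1q, met the rest of the rule and had Ptprc (CD45), S100a8 was at 20138 CPM, S100a9 at 24900, Cma1 at 2672 and Ctsk at 1008. Those are genes of neutrophils, mast cells and osteoclasts, and Mrc1 (18.7 CPM) and Pf4 (28.4 CPM) were low there. Genes of monocytes and other myeloid cells were present too, with Lyz2 at 7270 CPM, Plac8 at 704, Ly6c2 at 300 and Ccr2 at 284. Csf1r was at 171 CPM in these barcodes.

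The name macrophage held against markers that the rule did not use. All 18 listed identity genes were above the other kept barcodes in all 4 libraries, as were 4218 (14.8%) of the 28435 genes with a UMI in any kept barcode and 57.0% of the 2904 genes with at least 50 CPM in macrophages of every library. Counts of list members above the other barcodes are to be read beside these shares. The identity genes' summed level was 8312, 8877, 8886 and 9546 CPM, 20.3 to 36.4 times that of the other barcodes. Csf1r, the receptor for the growth factor that macrophages need, was at 614, 684, 752 and 792 CPM against 4.36 to 8.68. Adgre1, which encodes F4/80, was at 515, 455, 497 and 432 CPM against 1.77 to 4.27. Since each barcode was selected on macrophage genes of the same cells, these contrasts describe the selection and were not tested.

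By the order of the smallest of the 4 ratios, the genes furthest above the other barcodes were Fcrls, an Fc receptor-like gene, at 720, 717, 852 and 721 CPM (at least 216-fold in each library) and Ms4a7, a membrane protein gene of macrophages, at 498, 499, 661 and 723 CPM (198-fold). C3ar1, the receptor for complement C3a, was at 287, 277, 291 and 310 CPM (190-fold). Pf4, which encodes the chemokine CXCL4, was at 3042, 3020, 3792 and 4974 CPM (173-fold) and Mrc1, the mannose receptor CD206, at 1731, 1698, 2248 and 1962 CPM (166-fold). Both were high in every library, and Pf4 was higher at P1 in each jaw without reaching 2-fold.

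Ccl12, a chemokine gene, was at 235, 174, 327 and 535 CPM (131-fold). F13a1, the coagulation factor XIII A chain, was at 1656, 1843, 1272 and 1173 CPM (106-fold). It was at 1841 CPM in the own-barcode and 950 CPM in the shared P1 maxillary cells, so its direction between the maxillary stages differed between the sets. Trem2, a lipid-sensing receptor that signals through the Tyrobp product, was at 269, 316, 412 and 422 CPM (94.1-fold), and Lyve1, a hyaluronan receptor, at 234, 420, 178 and 352 CPM (92.9-fold). The remaining 6 of the 15 were Aif1, Adgre1, Ms4a6b, Ms4a6d, Cd83 and Cd86, at 79.0-fold or more. Among 1414 genes with at least 100 CPM in macrophages of every library, 126 were at least 10-fold above the other barcodes in all 4.

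**Figure D2:**
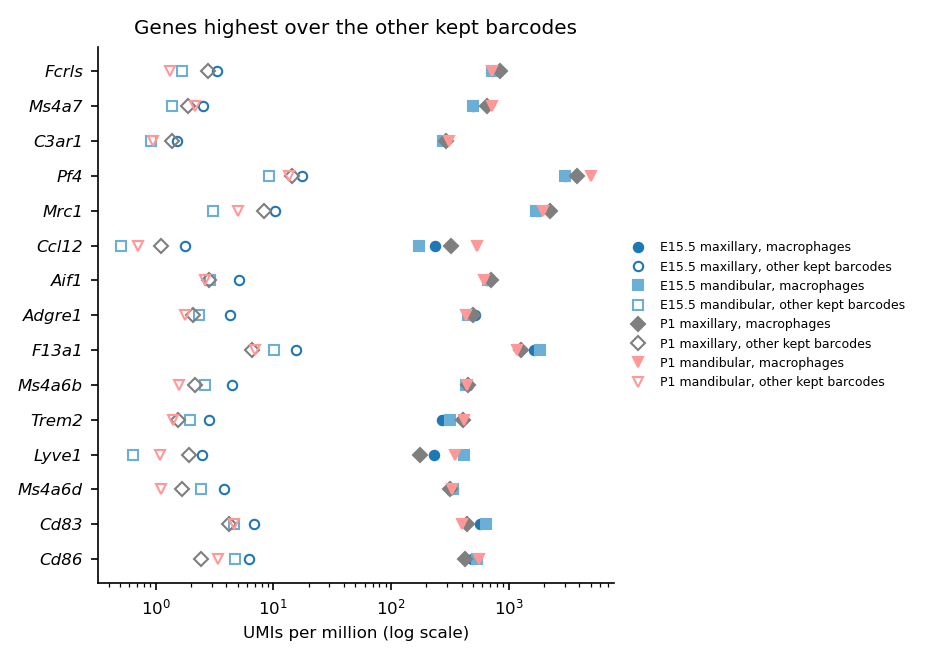
Levels of the 15 genes furthest above other kept barcodes, in CPM on a log axis, in macrophages and in other kept barcodes of each of the 4 libraries. The smallest ratio in any library was 216-fold for Fcrls and 79.0-fold for Cd86, the last of the 15.

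Lysosome genes were high. Each of the 20 lysosome genes was above the other barcodes in all 4 libraries, with a sum of 10890, 12175, 13201 and 15259 CPM. Ctsb, a cysteine protease, was at 1894, 2191, 2331 and 2902 CPM and Lgmn, the asparaginyl endopeptidase legumain, at 1197, 1195, 1668 and 1685 CPM. The sum was higher at P1 in both jaws, by log2 0.28 [0.25, 0.30] in the maxillary and 0.33 [0.30, 0.35] in the mandibular pair, and it was 11652 CPM in the own-barcode and 14077 CPM in the shared cells. All 20 genes could be compared between stages and 0 passed 2-fold in both jaws, beside 13 of all 2329 genes compared (0.172% higher and 0.386% lower at P1). The list of uptake and scavenging genes had 14 of 19 members above the other barcodes in all 4 libraries and a sum of 2366, 2779, 2682 and 2997 CPM, 2.64 to 4.17 times theirs. For lipid handling, Apoe, a lipid carrier, was at 11069, 13021, 12506 and 13723 CPM against 119 to 237 in other barcodes, with 16356 CPM in the own-barcode and 10327 CPM in the shared P1 maxillary cells.

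Iron and heme genes were similarly high. Hmox1, which degrades heme, was at 589, 558, 536 and 845 CPM, and Slc40a1, the iron exporter ferroportin, at 71.9, 150, 211 and 253 CPM. Slc40a1 was higher at P1 in both jaws, though by under 2-fold in the mandibular pair. In the P1 maxillary library it was at 125 CPM in the own-barcode and 259 CPM in the shared cells. The light and heavy ferritin chains, Ftl1 and Fth1, gave 5525 to 7674 and 5878 to 6894 CPM. Hemoglobin and other red cell genes summed to 15718, 5700, 3835 and 6118 CPM in macrophages and to 24222 to 148258 CPM in the other barcodes. In the P1 maxillary library the sum was 9645 CPM in the own-barcode and 548 CPM in the shared cells. A single cell held 23.8%, 72.7%, 34.4% and 48.1% of the macrophages' red cell UMIs, and whether these transcripts were engulfed, free or from a doublet was not tested.

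Chemokine and cytokine genes were expressed broadly. Of 21 listed genes 20 were above the other barcodes in all 4 libraries, and the sum was 3270, 3946, 2970 and 3095 CPM. Cxcl2, which recruits neutrophils, was at 596, 994, 680 and 575 CPM, with 514 in the own-barcode and 773 in the shared P1 maxillary cells, Ccl4 at 340, 406, 294 and 184 CPM and Ccl2, which recruits monocytes, at 296, 390, 242 and 334 CPM. Il6 was the exception, with 1 UMI in all 821 cells. Immediate-early and heat shock genes, which respond to dissociation at 37 °C and also to signals in the tissue, summed to 10339, 10544, 9251 and 10398 CPM against 2539 to 3813 in the other barcodes of the same suspensions. What part of the Cxcl2 or Ccl4 level goes with the dissociation was not tested.

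Of 21 listed growth factor genes, 6 were above the other barcodes in all 4 libraries, and the sum was 1423, 1705, 1880 and 2159 CPM in macrophages against 2803, 3371, 3928 and 4543 CPM. Grn (progranulin) was at 546, 620, 774 and 885 CPM, Tgfb1 at 192, 231, 239 and 248 CPM, Gas6, which bridges apoptotic cells to MERTK, at 195, 252, 234 and 369 CPM and Igf1 at 142, 195, 210 and 281 CPM. Each was higher at P1 in each jaw by the pooled values, but Tgfb1 was at 177 CPM in the own-barcode cells, below E15.5 maxillary, and at 273 CPM in the shared cells. Igf1 was not particular to macrophages by level, with 109 to 480 CPM in the other barcodes. Bmp2, a bone and tooth morphogen, was at 35.98 to 49.98 CPM. Vegfa, at 1.02 to 5.56 CPM, and Fgf2, at 0 to 1.52 CPM, were low, with at most 14 and 3 UMIs in a library.

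All 20 listed receptors were above the other barcodes in the 4 libraries. Cx3cr1, the fractalkine receptor, was at 744, 663, 850 and 616 CPM and Tgfbr1 at 294, 250, 307 and 257 CPM, with 218 in the own-barcode and 357 in the shared P1 maxillary cells. Tnfrsf11a, which encodes RANK, the receptor for the osteoclast factor RANKL, was at 141, 130, 158 and 116 CPM against 2.58 to 4.52 CPM in the other barcodes. Of the 13 genes of the osteoclast list 4 were above the other barcodes in all 4 libraries, and the sum was 302, 234, 252 and 232 CPM against 234, 320, 292 and 376 CPM, above the other barcodes in E15.5 maxillary only. Acp5, the acid phosphatase TRAP, was at 55.6, 43.5, 29.6 and 44.7 CPM. Ctsk (cathepsin K) was at 8.74, 2.82, 4.06 and 5.58 CPM in macrophages against 65.3 to 130 in the other barcodes, and Calcr had UMIs in E15.5 mandibular macrophages only.

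Genes often used for microglia, the macrophages of the brain, did not all stand above the other barcodes. Of the 12 listed, 8 were above them in all 4 libraries. The sum was 1334, 1355, 1660 and 1546 CPM, 0.664 to 1.05 times theirs. Fcrls, Gpr34 (69.1, 85.5, 132 and 124 CPM) and P2ry12, an ADP receptor (62.8, 74.2, 125 and 130 CPM), were well above the other barcodes, and both Gpr34 and P2ry12 were higher at P1 in each jaw, by under 2-fold. Tmem119 was at 33.0 to 51.1 CPM in macrophages and at 32.7 to 34.1 CPM in the other barcodes. Sall1, a defining transcription factor of microglia, was at 1.59, 0, 0 and 0.508 CPM.

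Class I genes of antigen presentation were far more abundant than class II genes. All 8 class I genes were above the other barcodes in the 4 libraries, and their sum was 2030, 1991, 2467 and 2984 CPM, higher at P1 by log2 0.28 [0.22, 0.34] in the maxillary and 0.58 [0.53, 0.64] in the mandibular pair. The class II list gave 134, 160, 110 and 88.8 CPM, with 159 in the own-barcode and 81.8 in the shared P1 maxillary cells. It was 1.96 to 5.55 times the level in the other barcodes, with 4 of its 8 genes above them in all 4 libraries. Cd74, the invariant chain, made up much of it, at 68.4, 69.7, 39.5 and 37.1 CPM, while H2-Aa was at 5.96, 16.9, 1.74 and 0.508 CPM and was carried by 2, 3, 1 and 1 cells. In the leukocytes without C1q, H2-Aa was at 238 CPM. Interferon response genes summed to 2132, 2028, 2184 and 2978 CPM. Ifi27l2a, an interferon-induced gene, was at 499, 495, 658 and 1134 CPM, highest in P1 mandibular macrophages, with 588 in the own-barcode and 697 in the shared P1 maxillary cells.

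The comparison of stages asked what differed between macrophages of the late embryonic and the newborn molar. Cd163, the scavenger receptor for hemoglobin and haptoglobin (chr6:124304656-124330527 on GRCm38), was higher at P1 in both jaws, at 19.5, 18.9, 66.2 and 168 CPM. Il1b, the inflammatory cytokine interleukin 1 beta (chr2:129364570-129371139), was lower at P1, at 377, 325, 165 and 56.4 CPM. Compared were 2329 genes with at least 50 CPM and 20 UMIs at the higher stage of both pairs and a level at or above that of the other barcodes. Of these, 4 (0.172%) were at least 2-fold higher and 9 (0.386%) at least 2-fold lower at P1 in both jaws. The median log2 ratio over all 2329 was 0.02 in the maxillary and -0.01 in the mandibular pair.

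The 4 higher genes were Cd163, Syngr1, B3galnt1 and Pmepa1. Cd163 had a log2 ratio of 1.76 [1.27, 2.28] in the maxillary and 3.14 [2.70, 3.62] in the mandibular pair. Its pooled levels did not overlap between stages, at 25.7 CPM in the own-barcode and 89.0 CPM in the shared P1 maxillary cells, and 22, 16, 34 and 66 cells carried it. Syngr1, a vesicle membrane protein gene, was at 24.2, 37.9, 78.3 and 106 CPM, with log2 ratios of 1.69 [1.25, 2.15] and 1.48 [1.12, 1.85], and at 33.7 CPM in the own-barcode and 104 CPM in the shared P1 maxillary cells. B3galnt1, a glycosyltransferase gene, was at 27.8, 27.4, 61.5 and 60.4 CPM. Pmepa1, a target and inhibitor of TGF-beta signalling, was at 69.1, 94.3, 164 and 189 CPM, with a log2 ratio of 1.24 [0.97, 1.52] in the maxillary and 1.01 [0.77, 1.25] in the mandibular pair.

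The 9 lower genes were Gm47283, Sema4d, Malt1, Jdp2, Il1b, Pde4b, Plbd1, Taf4b and Kdm6b. Il1b had log2 ratios of -1.19 [-1.38, -0.996] and -2.53 [-2.83, -2.24]. Malt1, a protease of the NF-kappa B pathway, was at 75.5, 117, 30.8 and 30.0 CPM, Pde4b, which degrades cyclic AMP, at 198, 232, 91.1 and 60.9 CPM, and Jdp2, an AP-1 repressor, at 158, 170, 59.8 and 74.6 CPM. Sema4d, a semaphorin, was at 77.1, 74.2, 30.8 and 24.4 CPM, and Kdm6b, a histone H3K27 demethylase, at 194, 160, 91.1 and 69.6 CPM. For each of these the P1 libraries both lay below the E15.5 ones. Pde4b was at 164 CPM in the own-barcode and 49.98 CPM in the shared P1 maxillary cells, Jdp2 at 81.9 and 47.2 CPM and Sema4d at 54.6 and 17.3 CPM, all below E15.5 maxillary. Gm47283 (227, 196, 80.7 and 40.1 CPM) is annotated on the Y chromosome and fell alike in the other barcodes, at 161, 166, 69.6 and 45.9 CPM. It was at 127 CPM in the own-barcode and 54.5 CPM in the shared P1 maxillary macrophages. Taf4b was at 67.5 and 17.3 CPM in these 2 sets and Plbd1 at 41.8 and 20.9 CPM. Of the 17 genes called between stages or, below, between jaws, 6 stayed past 2-fold when cells were thinned to 1500 UMIs. Of the others, 10 fell below 2-fold and Taf4b turned direction. A mean over cells left 8 of the 17 past 2-fold and 9 below it.

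The count of called genes depended on which P1 maxillary macrophages were taken. With the 70 shared cells alone, 11 of 2360 genes (0.466%) were higher and 22 (0.932%) lower at P1 in both jaws, and they included all 13 named so far. With the 199 own-barcode cells alone, 0 of 2221 were higher and 4 lower (Malt1, Ell2, Hist1h4d and Kdm6b). The mandibular pair, which does not use the P1 maxillary library, gave 42 higher and 46 lower of 2799. Malt1 (30.5 and 30.9 CPM) and Kdm6b (93.2 and 89.96 CPM) were near the P1 mandibular level in both the own-barcode and the shared cells. Pmepa1 was below its E15.5 maxillary level in the own-barcode cells, at 38.5 CPM, and above it in the shared cells, at 234 CPM.

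**Figure D3:**
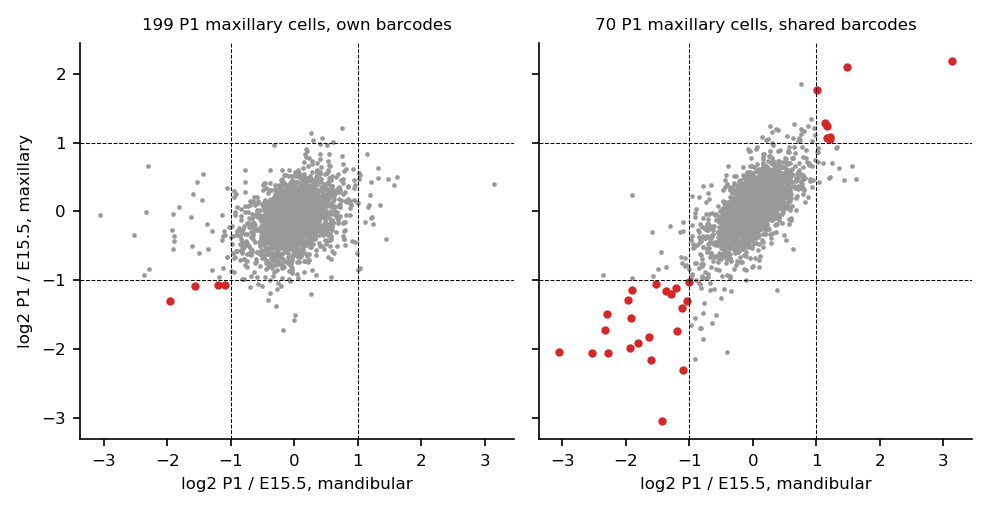
Log2 ratio P1 over E15.5 in the maxillary pair (vertical) against the mandibular pair (horizontal) for the 2329 genes compared between stages. The left panel takes the 199 own-barcode P1 maxillary macrophages and the right panel the 70 shared ones, and red points passed 2-fold in the same direction in both pairs, 4 on the left and 30 on the right.

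Genes that joined the call with the shared cells included Ccl8, Fcna and Ccr2. Ccl8, a chemokine gene on chr11:82115185-82116799, next to Ccl12 (chr11:82101845-82103400), had 2 UMIs in each E15.5 library. It was at 0.795 CPM in E15.5 maxillary, 0.806 in E15.5 mandibular, 4.82 in the own-barcode, 67.2 in the shared and 59.9 in the P1 mandibular macrophages. The log2 ratio was 6.22 [4.33, 9.28] in the mandibular pair and 6.40 [4.499, 9.47] for the shared cells over E15.5 maxillary. Few cells carried it at P1, 12 of the 269 maxillary and 22 of the 163 mandibular, and the cell with most held 59.7% and 36.4% of its UMIs. Fcna, the lectin ficolin A, was at 39.3, 68.9, 36.9, 83.6 and 160 CPM in the same 5 sets.

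Ccr2 (chr9:124101950-124113557), the receptor that brings monocytes into tissue, went the other way. It was at 89.4 CPM in E15.5 maxillary, 84.7 in E15.5 mandibular, 86.7 in the own-barcode, 21.8 in the shared and 10.2 in the P1 mandibular macrophages. The log2 ratio was -3.06 [-3.80, -2.40] in the mandibular pair and -2.04 [-2.71, -1.43] for the shared cells over E15.5 maxillary. Crybb1, a crystallin gene known from embryonic macrophages and microglia, was at 56.0, 70.1, 88.3, 19.99 and 14.2 CPM. Apoc1, an apolipoprotein gene, was at 112, 100, 164, 13.6 and 37.1 CPM, and Il1b at 377, 325, 297, 90.9 and 56.4 CPM. In all 4 the own-barcode cells lay nearer to the E15.5 libraries than to P1 mandibular on a log scale.

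Depth differed between these sets, so cells were thinned to 1500 UMIs each, which left out 18, 6, 18, 0 and 7 shallower cells. Ccr2 was then detected in 12.02%, 9.55%, 9.39%, 2.86% and 1.28% of cells, and in 23.9%, 19.6%, 14.6%, 11.4% and 4.29% without thinning. Il1b was detected in 25%, 25.5%, 23.8%, 4.29% and 5.13% of thinned cells, and Mrc1, which was no stage gene, in 64.4%, 70.7%, 70.2%, 82.9% and 78.2%. Cd163 was detected in 2.40%, 3.82%, 1.66%, 8.57% and 16.0% of thinned cells. Among the other kept barcodes, which should mostly lack these genes, the thinned share was 0.442% to 1.02% for Ccr2, 0.513% to 1.47% for Il1b and 0.0164% to 0.0680% for Cd163. At equal depth the own-barcode cells thus again lay near the E15.5 libraries for Ccr2, Il1b and Cd163. The shared cells lay nearer to P1 mandibular for Ccr2 and Il1b and between the stages for Cd163, where their interval was 3.21% to 17.7%.

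**Figure D4:**
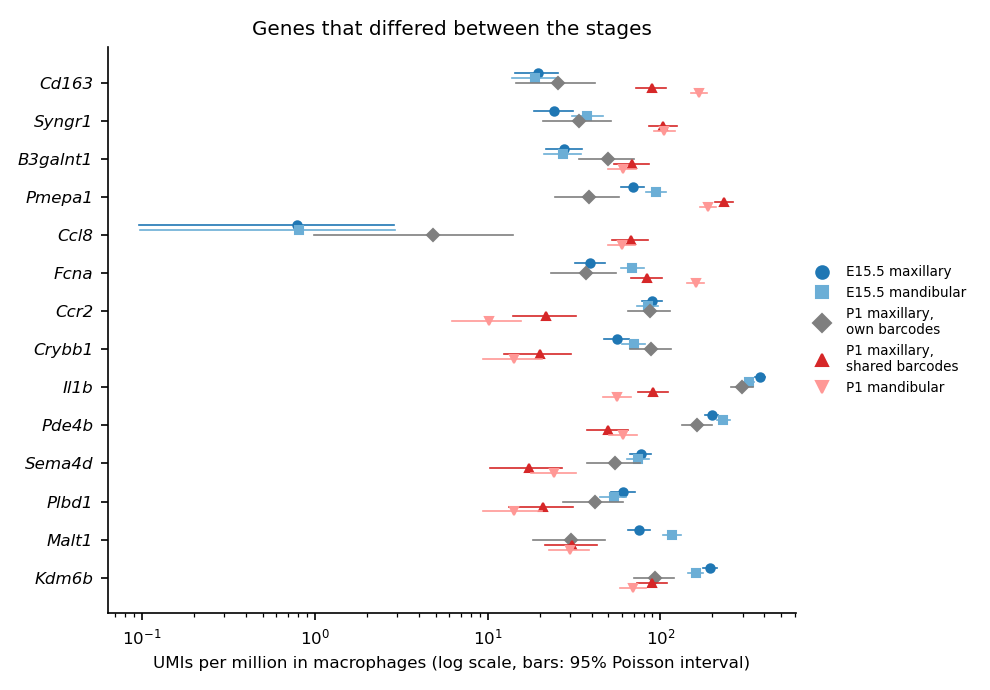
Levels of 14 genes in the macrophages of the 5 sets, in CPM on a log axis with exact 95% Poisson intervals. For Cd163, Syngr1, Pmepa1, Ccl8, Ccr2, Crybb1 and Il1b the own-barcode P1 maxillary cells lie nearer on the log axis to E15.5, below it in Pmepa1, and the shared cells nearer to P1 mandibular, while Malt1 and Kdm6b are low in both.

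Sex-linked transcripts moved with the same sets. In macrophages Xist was at 349, 365, 363, 827 and 669 CPM and Uty, from the Y chromosome, at 60.0, 58.9, 59.4, 18.2 and 11.7 CPM. Whether the sexes of the pooled animals differed between the libraries is not given, and the part of sex in the stage differences was not tested.

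Other genes at least 2-fold apart in the mandibular pair were Gpnmb, a lysosomal glycoprotein gene (16.9 to 89.9 CPM, with 32.2% of its P1 UMIs in 1 cell), Ccl12 (174 to 535 CPM), Fcgr2b, the inhibitory Fc receptor (76.99 to 228 CPM), Lgals3 (146 to 372 CPM) and Vcam1 (62.5 to 128 CPM), all higher at P1. Lower at P1 were Lsmem1 (59.7 to 5.08 CPM), Slc39a12, a zinc transporter (118 to 22.9 CPM), Dusp2 (311 to 83.3 CPM), Nlrp3, the inflammasome sensor (127 to 51.8 CPM), Pim1 (232 to 89.9 CPM) and Ccl4 (406 to 184 CPM). Dusp2 and Nlrp3 also passed 2-fold in the maxillary pair with the shared cells, and the others rest on the mandibular pair.

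Of the listed groups, the resident and perivascular list had 12 of its 15 genes compared, with 1 higher (Cd163) and 0 lower, beside 0.172% higher and 0.386% lower over all 2329 genes compared. Its sum was 9705, 10589, 11421 and 13638 CPM. The chemokine list had 15 of 21 compared, with 0 higher and 1 lower (Il1b). The lysosome (20 compared), class I (3), interferon (6), scavenging (12), receptor (19), S phase (9) and G2/M (10) lists had 0 in either direction by the rule on both jaws. Median log2 ratios over the members compared were 0.35 in the maxillary and 0.50 in the mandibular pair for the resident list, 0.18 and 0.36 for lysosome genes and -0.21 and -0.34 for chemokines, beside 0.02 and -0.01 over all genes compared.

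The summed levels of the proliferation lists were higher in macrophages than in the other barcodes, with 15 of 18 S phase and 13 of 19 G2/M genes above them in all 4 libraries. At 50 CPM or more in every library it was 7 of 10 G2/M genes, beside 57.0% of all genes at that level. The S phase list summed to 1185, 1096, 1002 and 982 CPM in macrophages and to 949, 895, 633 and 559 CPM in the others. The G2/M list gave 1617, 1553, 1429 and 1222 CPM against 1297, 1232, 990 and 876 CPM. Both were lower at P1 in each jaw by the pooled values. The G2/M sum was 1217 CPM in the own-barcode and 1549 CPM in the shared P1 maxillary cells. Their log2 ratios over E15.5 maxillary were -0.41 [-0.52, -0.30] and -0.06 [-0.14, 0.02], so the interval of the shared cells included 0. The S phase sum was 901 and 1059.5 CPM in these 2 sets, with log2 ratios of -0.40 [-0.53, -0.27] and -0.16 [-0.26, -0.06].

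The comparison of jaws asked what differed between maxillary and mandibular molars. Of 2122 genes compared, 0 (0.0%) were at least 2-fold higher and 4 (0.189%) at least 2-fold lower in maxillary macrophages at both stages. They were Spp1, Folr2, Ednrb and Ccl6. Folr2, a folate receptor of resident macrophages, was at 58.0, 131, 75.4 and 228 CPM, with log2 ratios of -1.18 [-1.47, -0.89] at E15.5 and -1.60 [-1.89, -1.31] at P1. Ednrb, the endothelin receptor B, was at 103, 231, 109 and 324 CPM, with log2 ratios of -1.17 [-1.39, -0.96] and -1.58 [-1.82, -1.34]. Folr2 was at 48.2 CPM in the own-barcode and 90.9 CPM in the shared P1 maxillary cells, and Ednrb at 77.1 and 126 CPM. In both, the mandibular libraries lay above the maxillary ones at each stage, and the UMIs were spread over 55 to 94 cells in each library.

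Spp1, which encodes the bone matrix protein osteopontin, was at 26.6, 200, 42.4 and 183 CPM, with log2 ratios of -2.91 [-3.30, -2.54] and -2.11 [-2.50, -1.75]. The other barcodes gave Spp1 at 17.7, 100, 57.8 and 89.7 CPM, lower in the maxillary library at both stages too. A single P1 mandibular macrophage held 53.7% of the Spp1 UMIs there, and without it the level was 85.1 CPM. Ccl6, a chemokine gene, was at 43.7, 89.1, 33.1 and 66.5 CPM, with log2 ratios of -1.03 [-1.37, -0.69] and -1.01 [-1.48, -0.55]. A single E15.5 mandibular cell held 18.1% of the Ccl6 UMIs there, and without it the level was 73.5 CPM and the log2 ratio at E15.5 -0.75, under 2-fold. With the 70 shared cells alone the same 4 were lower, of 2106 genes compared (0.19%), and 0 were higher (0.0%). With the 199 own-barcode cells alone Spp1, Folr2 and Ednrb were lower with Slc40a1, and Plac8 was higher. Since the shared barcodes occur in both jaws' libraries, the P1 jaw comparison rests on how they were assigned.

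At E15.5 alone, 3 genes were higher in maxillary macrophages (Cma1, Cacnb2 and Plac8) and 11 lower, among them Slpi (1.99 and 52.4 CPM), Lsmem1 (9.14 and 59.7 CPM) and Slc40a1 (71.9 and 150 CPM). Cma1, a mast cell chymase, had 97.9% of its 387 UMIs in 1 cell and was at 3.197 CPM without it.

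Macrophages with Lyve1 had more of the resident list and less of the class II list than those without in all 4 libraries. Lyve1 marks macrophages that lie along vessels in many tissues. It was detected in 70, 77, 54 and 80 cells (31.0%, 47.2%, 20.1% and 49.1%). The sum of the resident list, with Lyve1 left out, was 15847, 15082, 19172 and 19629 CPM in cells with it and 5901, 5117, 8163 and 7160 CPM in cells without. Pf4 was at 5317, 4804, 6864 and 7670.0 CPM against 1767, 1186, 2599 and 2370.0 CPM, and F13a1, Gas6, Folr2, Cd163 and Cbr2 were also higher in the cells with Lyve1 in every library. Gas6 was at 395, 450, 438 and 569 CPM against 83.1, 48.2, 155 and 175 CPM. The class II list went the other way, at 55.4, 51.7, 64.3 and 62.0 CPM with Lyve1 and 178, 271, 127 and 115 CPM without. Both directions were the same in the own-barcode cells (29 with Lyve1), at 21770 against 9265 CPM for the resident and 92.9 against 171 CPM for the class II list, and in the shared cells (25 with Lyve1), at 18518 against 7354 CPM and 57.1 against 95.1 CPM. The lysosome list was higher with Lyve1 in all 4 libraries (11636, 13183, 14691 and 15754 against 10473, 11138, 12622 and 14780 CPM), and so was the immediate-early and heat shock list (11676, 12555, 10422 and 12689 against 9590, 8477, 8797 and 8186 CPM). What part of the split goes with dissociation was not tested. Some lists did not keep 1 direction. The monocyte list was lower with Lyve1 in 3 libraries (57.6, 110 and 154 against 942, 835 and 393 CPM) and higher in P1 mandibular (464 against 360 CPM). There the neutrophil list was at 904 CPM with and 36.9 CPM without Lyve1, and leaving out the cell with most neutrophil UMIs gave 41.4 CPM for the neutrophil and 443 CPM for the monocyte list in cells with Lyve1. The G2/M list was higher with Lyve1 in E15.5 maxillary (2090 against 1353 CPM) and in the own-barcode P1 maxillary cells (1786 against 1113 CPM), and lower in the shared ones (1122 against 1780 CPM) and in both mandibular libraries. The interferon list was lower with Lyve1 in E15.5 maxillary (1695 against 2376 CPM) and in the own-barcode cells (1930 against 2320 CPM), and higher in the shared ones (2661 against 1862 CPM) and in both mandibular libraries.

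Cells with a Ccr2 UMI had less of the resident list and more of the class II and monocyte lists than cells without in all 4 libraries. Ccr2 was detected in 54, 32, 37 and 7 cells (23.9%, 19.6%, 13.8% and 4.29%). The resident list summed to 4332, 4658, 6630 and 7268 CPM with Ccr2 and to 11290, 12018, 12106 and 13908 CPM without. The monocyte list, with Ccr2 left out, gave 1449, 1028, 1012 and 524 CPM against 265, 227, 176 and 396 CPM, and the class II list 352, 519, 353 and 299 CPM against 69.5, 73.0, 74.95 and 79.9 CPM. Plac8, a monocyte gene, was at 276, 145, 278 and 0 CPM in cells with Ccr2 and at 1.54, 4.002, 5.97 and 8.997 CPM in cells without. The resident list was at 5067 against 12441 CPM in the own-barcode cells (29 with Ccr2) and at 7794 against 11924 CPM in the shared cells (8 with Ccr2), and the class II list at 587 against 84.8 and at 178 against 69.6 CPM. The P1 mandibular values with Ccr2 come from 7 cells.

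**Figure D5:**
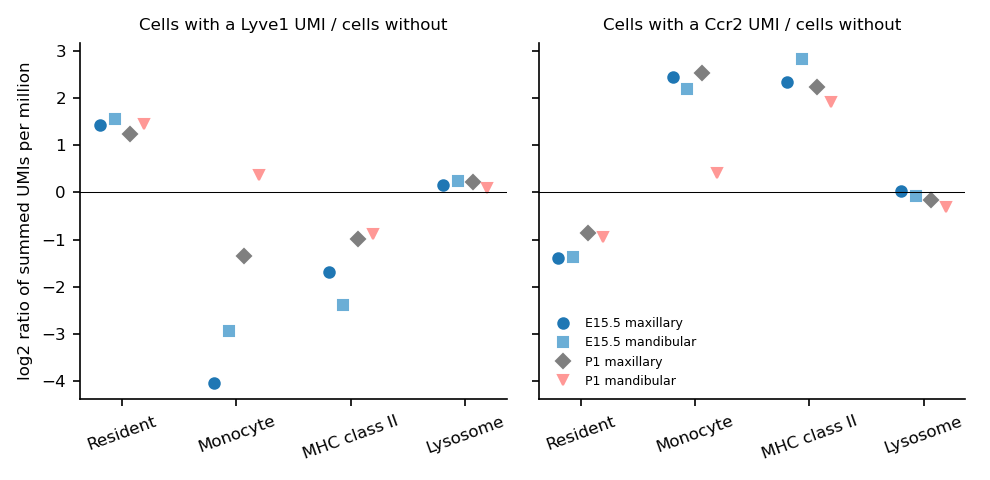
Log2 ratio of the summed level (CPM) of 4 gene lists in macrophages with over those without a UMI of Lyve1 (left) and of Ccr2 (right), for each of the 4 libraries. The resident list is higher with Lyve1 and lower with Ccr2 in all 4 libraries, and the class II list is lower with Lyve1 and higher with Ccr2.

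These splits read 1 gene per cell, so a cell without the UMI can still express the gene, more so where cells are shallow. Cells with Lyve1 had medians of 12566, 16618, 4957 and 10880 UMIs, and cells without it 10070, 13046, 3159 and 12368 UMIs. The split is a description within the cells that the C1q rule selected.

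Wnt genes, the subject of the study, were low in macrophages. Of 19 Wnt ligands 0 were above the other barcodes in all 4 libraries, and together they gave 25, 18, 25 and 29 UMIs, 9.93, 7.26, 14.5 and 14.7 CPM, beside 244, 122, 338 and 394 CPM in the other barcodes. Wnt6, a ligand of dental epithelium, was at 1.19, 1.61, 2.32 and 5.08 CPM against 4.23 to 124 in the other barcodes. Among 18 receptors and co-receptors only Lrp6, a co-receptor, was above the other barcodes in all 4, at 84.6, 107, 117 and 130 CPM against 78.4 to 96.0. The list of 30 inhibitors, mediators and targets gave 437, 419, 434 and 423 CPM. Its most abundant genes were Tcf7l2 (128, 126, 118 and 104 CPM), a transcription factor of the pathway, Ctnnb1 (121, 137, 107 and 138 CPM), which encodes beta-catenin, and Wls (87.0, 83.0, 77.8 and 87.3 CPM), needed to secrete Wnt proteins. Axin2, a target gene of the pathway, had UMIs in E15.5 maxillary macrophages only, at 2.78 CPM.

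Apart from monocytes, the listed markers of other leukocytes, vessels and nerves were below 100 CPM, except where 1 cell held most of the value. The monocyte list was at 624, 467, 326 and 411 CPM in macrophages and at 1444, 1358, 2108 and 2267 CPM in the other barcodes. The neutrophil list was at 6.36, 5.24, 5.22 and 463 CPM, and 1 P1 mandibular cell held 91.7% of the last value, which was 39.1 CPM without it. The mast cell list was at 294, 3.63, 8.71 and 12.2 CPM, and 1 E15.5 maxillary cell held 97.8% of the first value, which was 6.39 CPM without it. The T and NK cell list was at 1.74 to 5.24 CPM and the dendritic cell list at 12.2 to 20.96 CPM. The B cell list was at 52.8 to 71.6 CPM, most of it Cd79b (54.0, 51.6, 52.2 and 48.7 CPM), whose UMIs were spread over 55 to 86 cells in each library. The endothelial list was at 26.2, 37.9, 27.9 and 89.4 CPM, from 10.5% to 50.4% of the level in the other barcodes, and 1 P1 mandibular cell held 60.2% of the last value, which was 36.3 CPM without it. The neural and glial list and the megakaryocyte list gave 3.55 to 16.8 and 5.64 to 9.29 CPM.

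Transcripts of dental epithelium and mesenchyme were present in the macrophages, at levels that the rule limits, since it allows no Epcam and caps Col1a1, Col1a2 and Col3a1, which belong to these lists. The epithelial list was at 26.6, 5.24, 40.0 and 203 CPM, from 2.07% to 3.74% of the level in the other barcodes, with Amelx at 160 CPM in P1 mandibular macrophages, spread over 127 of 163 cells. The mesenchymal list was at 249, 154, 253 and 302 CPM, from 1.67% to 3.48% of that level, with 456 in the own-barcode and 138 in the shared P1 maxillary cells. Without the genes of the rule the epithelial list had the same level, 2.21% to 3.82% of that in the other barcodes, and the mesenchymal list was at 65.2, 34.3, 103 and 76.2 CPM, 1.495% to 3.80% of it. The muscle list was at 37.0, 70.9, 34.2 and 332 CPM and reached 82.7% of the other barcodes' level in P1 mandibular, where 109 of 163 cells carried it and it was at 271 CPM without the cell with most. These values move with stage in the mandibular pair, and their part in the stage differences was not tested.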

How the data were processed

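The authors made 3′ single-cell libraries from dissociated molar tooth organs and deposited 1 matrix of UMI counts per library, made with Cell Ranger 7.0.1 on mm10 with default cell calling (32285 genes). Their later doublet and quality filters had not been applied to the deposited counts. From the deposited counts, barcodes were kept at 1000 UMIs or more and under 10% mitochondrial UMIs, and macrophages were chosen by the rule given above. UMIs were summed per library and given as CPM, with exact Poisson, binomial (for ratios) and Clopper-Pearson (for shares) intervals at 95%. UMIs of 1 cell are not independent samples of animals, so no test was made. Doublets were not removed in the main values, and Scrublet (scanpy 1.11.5, 0.8% removed per 1000 barcodes) was an alternative. The cells and gene lists were chosen with earlier results of these data known. Named genes were the 15 furthest above other barcodes by their smallest ratio, up to 12 called genes in each direction between stages and 5 between jaws, all genes of the rule, and the highest or called members of each list. Genes named from a single pair or from the shared or own-barcode cells were chosen after their values were seen. So were Uty, Xist, Amelx, Dspp, Igf2bp1, Ddx3y and Hbb-bs. Each thinned share came from 1 random draw of 1500 UMIs per cell, made separately for each gene and set of cells. The value of 1 listed gene is not reported here. The steps were checked on simulated data. Software was Python 3.11.15, numpy 2.4.6, scipy 1.17.1 and pandas 2.3.3.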

Additional observations from a re-analysis of the deposited data

Results flagged for a closer look

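Data outside the comparisons held macrophage transcripts. Of the P1 mandibular barcodes dropped because they also occur in P1 maxillary, 72 met the macrophage rule, with a median of 3846.5 UMIs and the identity list at 8236 CPM. Of these 72, 62 had a barcode already counted among the P1 maxillary macrophages. Of barcodes with at least 5 C1q UMIs, 47 were left out for having Epcam and 97 for being over the collagen limit. Those with Epcam had the identity list at 2587 to 5392 CPM and the epithelial list at 34.6 to 44590 CPM, and those over the collagen limit the identity list at 3224 to 3891 CPM and the mesenchymal list at 6149 to 11831 CPM. In each library these barcodes held less of the identity list than the macrophages, which gave 8312 to 9546 CPM.

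Marker lists of 2 other cell types had log2 ratios between stages whose counting intervals lay on opposite sides of 0 in the 2 jaws. The red cell list had a log2 ratio of -2.04 in the maxillary and 0.10 in the mandibular pair, and the mast cell list -5.08 and 1.75. In the maxillary pair the red cell list was at -0.70 with the 199 own-barcode P1 maxillary cells (9645 CPM) and at -4.84 with the 70 shared ones (548 CPM), and the mast cell list at -5.51 and -4.88. The difference between jaws was not tested in either case. The cell with most mast cell UMIs held 97.8% of them in E15.5 maxillary, and without it the maxillary ratio was 0.45, in the same direction as the mandibular one. In E15.5 mandibular the cell with most red cell UMIs held 72.7% of them, and without it the list was at 1568 CPM. In P1 mandibular the list was at 3185 CPM without the cell with most.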

How the results depend on the processing

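Each group was 1 library, and no paired test was made. Other thresholds on C1q (3 or 10 UMIs), on UMIs per barcode (500 or 2000), on collagen, and removing Scrublet's highest scores kept every count within 1.5 times its main value. Keeping the barcodes shared by the P1 libraries in both gave a P1 mandibular share of 1.47%. Dropping them from both gave a P1 maxillary share of 2.08%, 0 genes higher and 4 lower at P1, and 1 higher in maxillary, and turned Pmepa1 to log2 -0.84. With shared barcodes only, the share was 1.01%, with 11 genes higher and 22 lower at P1. A level limit of 20 CPM gave 12 higher and 18 lower at P1 and 2 higher in maxillary, and one of 100 CPM 1 higher and 5 lower. A mean over cells gave 2 higher and 2 lower, as did thinning to 1500 UMIs, which turned Taf4b to log2 0.13. The mandibular pair alone gave 42 higher and 46 lower at P1, and the E15.5 pair alone 3 higher and 11 lower in maxillary. The causes were not tested. Over 17 called genes and 13 settings, 180 of 221 values kept their direction and side of 2-fold, 39 fell below 2-fold and 2 turned. Thinning, means over cells and the 20 CPM limit change how much the shallow own-barcode cells weigh or which genes are compared. What part this had in the changed counts was not tested.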
